A study of Mus musculus with 12 samples.

Results

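The genes of oxidative phosphorylation (OXPHOS) were examined in peritoneal cavity (PerC) B cells with and without a GPR34 knock-in (KI) allele. Members were the gene table entries named as subunits of the 5 OXPHOS complexes, with at least 10 counts in at least 3 libraries and with entries named as pseudogenes left out. Of 56941 genes in the table, 120 carried such a name, 14 of them were pseudogene entries and 11 had too few counts, which left 95 members. Of these, 82 are nuclear and 13 are encoded by mitochondrial DNA. Complex I (NADH dehydrogenase) had 38 nuclear and 7 mitochondrial members, complex II (succinate dehydrogenase) 4 nuclear members, complex III (cytochrome bc1) 8 and 1, complex IV (cytochrome c oxidase) 14 and 3, and complex V (ATP synthase) 18 and 2. All 95 passed the filter on low counts, and 93 had at least 10 counts in every library.

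The 4 groups were PerC B2 (IgD+IgM+) and PerC MemB (IgD-IgM-), each from control and from KI mice, with 3 libraries in a group. In KI mice a conditional transgene at Rosa26 encodes GPR34, a receptor for lysophosphatidylserine, with a C-terminal truncation that raises its activity, linked to GFP. Cd21-Cre removes the stop in front of it in mature B cells. The study states that the Rosa26 allele was made on a B6N mouse background. The sort as stated used surface IgD and IgM and does not mention GFP, so a KI library may hold cells in which the allele was not switched on. The labels give the controls no Cre or Rosa26 genotype and give no age or sex for a library. The study's methods state an age range for the mice and speak of males and females. Xist, whose counts are given below, was high only in replicate 3 of each group.

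Depth lay between 29895068 and 39732124 counts per library. Gpr34 was higher in each KI library (100.3 to 168 CPM, normalized counts scaled to a common library size by TMM) than in each control library of either cell type (3.42 to 30.8 CPM). Ighd, which encodes IgD, stood at 1297 to 1694 CPM in B2 and 66.4 to 251 CPM in MemB. Ighm, which encodes IgM, stood at 2906 to 4341 CPM in B2, at 2014 to 2688 CPM in control MemB and at 297 to 566 CPM in KI MemB, so control MemB held IgM transcripts despite the sort. The 6 B cell markers summed to between 3077 and 3569 CPM in all 12 libraries. Replicates varied widely: over all genes the common biological coefficient of variation was 91.4%.

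OXPHOS makes most of the ATP of a resting lymphocyte. Complexes I and II pass electrons from NADH and succinate to ubiquinone, complex III passes them to cytochrome c, and complex IV passes them to oxygen. Complexes I, III and IV pump protons, which complex V uses to make ATP. Mitochondrial DNA encodes core subunits of complexes I, III, IV and V and none of complex II. It is transcribed as long precursors from both strands, which are cut into mRNAs, ribosomal RNAs (rRNAs) and transfer RNAs (tRNAs). All other subunits are made from nuclear genes and imported.

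The mitochondrial members were far more abundant than the nuclear ones. Per kilobase of coding length, the mean level over the 12 libraries was 279.7 (mt.Nd3) to 10270 CPM per kb (mt.Co1) for the mitochondrial members. The median nuclear member stood at 47.5 CPM per kb in complex I, 52.1 in complex II, 71.2 in complex III, 158 in complex IV and 118 in complex V. The plot of levels per kilobase shows this separation. Nuclear members of the complexes overlapped widely, with higher medians in complexes IV and V than in complex I. Reads of the untranslated regions are in the counts but not in the length, so levels of single nuclear genes are approximate and their order depends on the length used. The highest nuclear members were Cox7c (618 CPM per kb) and Cox6a1 (442) in complex IV, Atp5f1e (511), the epsilon subunit, in complex V, Uqcrh (245), the hinge protein, in complex III, Ndufa3 (180.0) in complex I and Sdhd (61.2), a membrane anchor, in complex II. The lowest were Cox7a1 (1.93 CPM per kb) in complex IV, Ndufb4b (4.04) in complex I, Atp5mc2 (16.2) in complex V, Uqcrc1 (23.5) in complex III and Sdhb (25.2), the iron-sulfur subunit, in complex II. Per kilobase of the whole canonical transcript instead, the highest were Cox6a1 (260.3), Atp5f1e (189), Uqcr10 (90.4), Ndufa3 (89.1) and Sdha (37.6), and the lowest were Cox6b2 (1.03), Ndufb9 (3.59), Sdhb (5.3), Uqcr11 (7.77) and Atp5mk (8.44). Ndufb4b and Ndufb4c are near copies of Ndufb4 annotated as non-coding, and Atp5mc2 has copies elsewhere in the genome that match it base for base, so reads could be split between them.

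**Figure D1:**
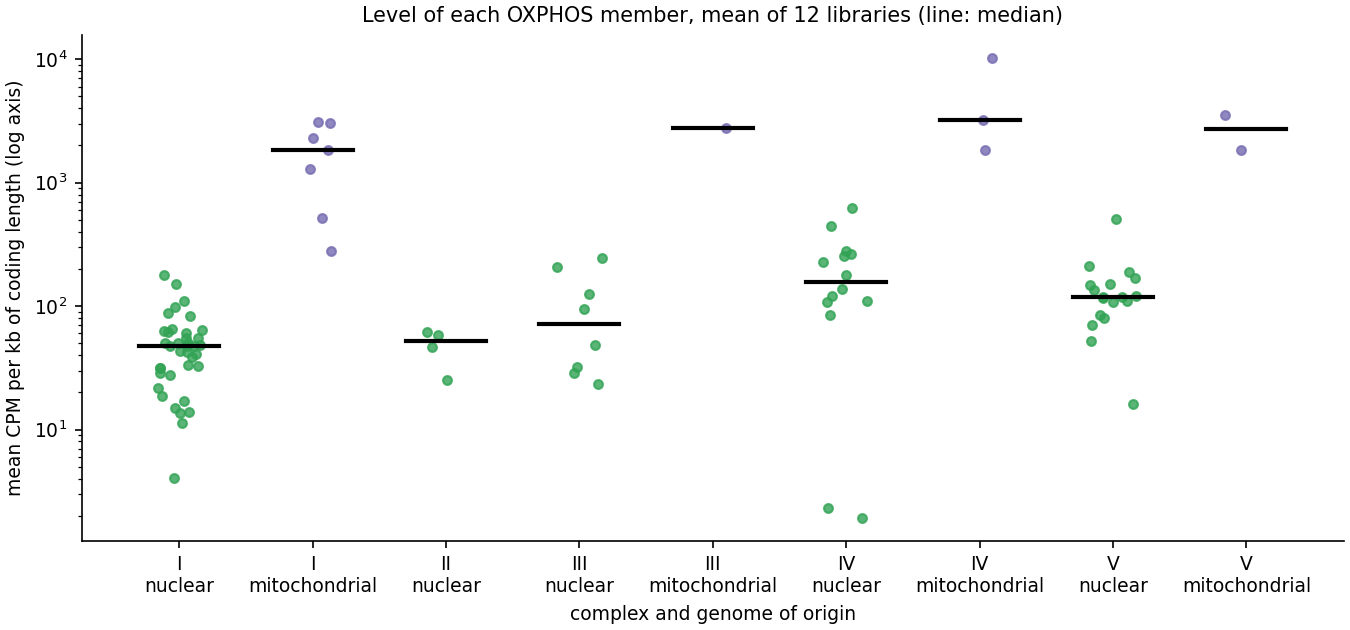
Mean level of each of the 95 members over 12 libraries, in CPM per kilobase of coding length (log axis), by complex and genome of origin, with a line at the median. Each mitochondrial member but mt.Nd3 and mt.Nd6 lies above the highest nuclear member, Cox7c (618 CPM per kb).

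Several tissue-specific isoforms had no or few counts beside a widely expressed partner. Cox4i1 stood at 70.4 CPM, while Cox4i2, the lung form, had 0 counts in all 12 libraries. Cox6a1 stood at 149 CPM, while Cox6a2, the heart and muscle form, had 0 counts. Cox8a stood at 81.5 CPM, Cox8b had at most 5 counts in a library, and Cox8c had 0. Cox7b stood at 68.4 CPM and Cox7b2 at 0 counts, and Ndufa4 stood at 36.7 CPM while Ndufa4l2 had at most 1 count. A count of 0 allows a level of up to 0.0734 to 0.102 CPM, depending on the library (3 counts, for counting error only). Among the 3 genes for the proton-carrying c subunit of complex V, which make the same mature protein, Atp5mc1 (48.9 CPM) and Atp5mc3 (46.9 CPM) were close, and Atp5mc2 was at 7.14 CPM.

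Cox6b2, a testis isoform, and Cox7a1, a heart and muscle isoform, were the 2 members seen in only some libraries. Cox6b2 had 2, 0 and 1 counts in control B2 and 13, 75 and 108 in KI B2, and 15, 2 and 1 counts in control MemB and 4, 53 and 1 in KI MemB. Cox7a1 had 0, 1 and 1 counts in control B2 and 0, 42 and 67 in KI B2, and 1, 10 and 75 counts in control MemB and 0, 8 and 0 in KI MemB. The 4 libraries with more than 30 counts of either gene were replicates 2 and 3 of KI B2, replicate 3 of control MemB and replicate 2 of KI MemB, so single libraries carry both genes. In all libraries their common isoforms Cox6b1 (39.4 to 98.8 CPM) and Cox7a2 (21.5 to 75.4 CPM) were far higher.

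The spread between replicates was smaller for the mitochondrial than for the nuclear members. Within a group, the coefficient of variation had a median of 36.6% over the 82 nuclear members and of 15.6% over the 12 mitochondrial members other than mt.Nd3. Over the 8160 tested genes between the 5th and 95th percentile of the nuclear members' levels (5.96 to 118 CPM) the median was 47.0%. Over the 381 other genes within the range of those 12 mitochondrial members it was 14.8%, although these genes had a lower median level (448 CPM) than the 12 members (2300.0 CPM). The lowest was 9.23%, for mt.Nd4, and among nuclear members 17.6%, for Atp5mg, a subunit of the membrane part of complex V.

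Summed over members, mitochondrial OXPHOS transcripts were lower in KI MemB than in control MemB. The sum of the 13 mitochondrial members was 46933, 47879 and 38469 CPM in control MemB (44427 ± 5181, SD, n = 3) and 30920, 37856 and 37435 CPM in KI MemB (35404 ± 3889, SD, n = 3). All 3 KI libraries lay below all 3 controls, and the ratio of the means was 0.797. In B2 the sums were 49239, 41250 and 32027 CPM in control and 31547, 39015 and 35791 CPM in KI, and the groups overlapped (ratio of the means 0.868). The 82 nuclear members summed to 3452, 3487 and 3420 CPM in control MemB and to 4308, 3375 and 3815 CPM in KI MemB, groups that overlapped. In B2 the nuclear sums were 3414, 3055 and 3676 CPM in control and 2903, 3241 and 3733 CPM in KI, and they overlapped too.

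The ratio of mitochondrial to nuclear OXPHOS counts was 13.6, 13.7 and 11.249 in control MemB and 7.18, 11.217 and 9.81 in KI MemB. Each KI MemB library was lower than each control, but the closest pair, KI replicate 2 and control replicate 3, differed in the second decimal. With nuclear copies of the mitochondrial genes added these 2 libraries stood at 12.995 and 12.981, and in counts per kilobase at 4.48 and 4.33, so in both forms the groups overlapped. The ratio was 14.4, 13.5 and 8.71 in control B2 and 10.9, 12.04 and 9.59 in KI B2. Control B2 replicate 3 lay below all KI B2 libraries. The plot of summed levels shows these values for each library. In bulk RNA, fewer cells of a type and less RNA per cell cannot be told apart.

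**Figure D2:**
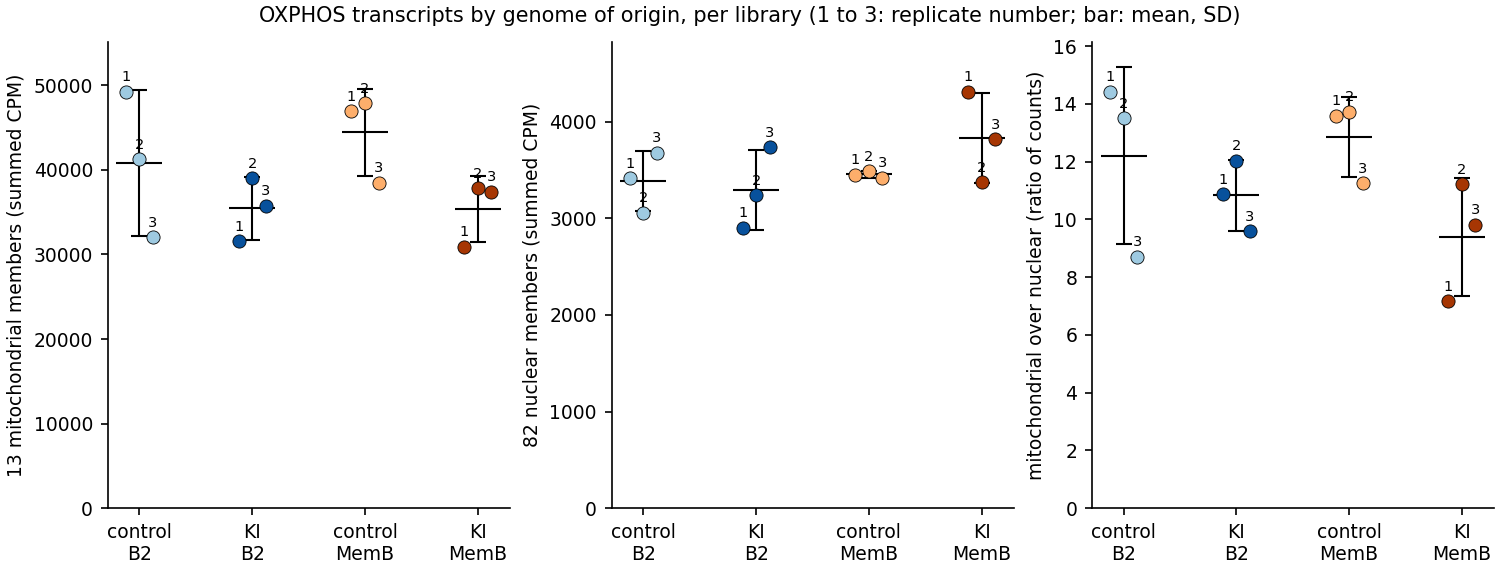
Summed CPM of the 13 mitochondrial members, summed CPM of the 82 nuclear members, and the ratio of their counts, for each library by group (points numbered by replicate, bars at mean ± SD). Mitochondrial sums of KI MemB (30920 to 37856 CPM) lie below those of control MemB (38469 to 47879 CPM).

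The first comparison asked what the KI allele changes in MemB. A gene was called where its adjusted p in edgeR was under 0.05 and its level changed by more than 1 on the log2 scale, up or down. No OXPHOS member was called, against 0.284% of all genes tested (43 of 15148), and DESeq2 called no member either. At an unadjusted p below 0.05, 2 members were higher and 7 were lower, 2.11% and 7.37% of the 95, against 4.83% and 6.24% of all genes. Of the 7 lower ones, 6 were mitochondrial, 46.2% of the 13 mitochondrial members. The median log2 fold change was -0.40 over the mitochondrial and 0.20 over the nuclear members, against -0.03 over all genes tested. Of the mitochondrial members 12 of 13 had a value below 0, and of the nuclear members 53 of 82 (64.6%) had one above 0, against 48.4% of all genes. The members share libraries, and the mitochondrial ones also precursor transcripts, so they are not independent of each other. With the number of detected genes as a covariate 11 of 13 mitochondrial members were below 0, and with a library left out 10 to 12. Single libraries moved the size. The mitochondrial median was -0.24 without control MemB replicate 1 and -0.54 without control MemB replicate 3, with 4 and 9 members lower at an unadjusted p below 0.05. The nuclear median was 0.0846 without KI MemB replicate 1 and 0.332 without KI MemB replicate 2.

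The lowest p-values belonged to mitochondrial subunits of complexes I and III. mt.Nd5, a proton-pumping subunit of complex I (chrM:11742-13565), stood at 5794, 4971 and 4558 CPM in control MemB and 3022, 3664 and 3353 CPM in KI MemB. The groups did not overlap, and the log2 fold change of -0.61 ± 0.14 (SE) had an adjusted p of 0.0541. mt.Nd4, a neighbouring subunit of the same pumping arm (chrM:10167-11544), stood at 5974, 5341 and 4809 CPM in control MemB and 3541, 3959 and 3913 CPM in KI MemB. Again each KI library was below each control, with a log2 fold change of -0.50 ± 0.12 and an adjusted p of 0.0745. mt.Cytb, the cytochrome b of complex III (chrM:14145-15288), stood at 4223, 4004 and 3740 CPM in control MemB and 2520, 2796 and 2701 CPM in KI MemB. Its log2 fold change was -0.58 ± 0.15, with an adjusted p of 0.117. mt.Nd4l, mt.Nd6 and mt.Atp6 had values of -0.62 ± 0.21, -0.63 ± 0.24 and -0.40 ± 0.14, each with an adjusted p above 0.3. None of these passed the adjusted threshold. With a library left out, the adjusted p of mt.Nd5 ran from 0.0261 to 0.306 and fell below 0.05 in 5 of 12 fits, with a log2 fold change between -0.68 and -0.50.

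The KI MemB libraries did not overlap the controls in 9 members that were lower and 5 that were higher, 9.47% and 5.26% of the 95, against 6.08% and 6.01% of all genes. The 9 were mt.Nd4, mt.Nd4l, mt.Nd5, mt.Nd6, mt.Cytb, mt.Atp6, mt.Atp8, Ndufb1 and Cox7a2l, and the 5 were Ndufb4b, Ndufc2, Sdhb, Uqcrq and Atp5mk.

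Along the mitochondrial genome the log2 fold changes were not alike. In MemB the rRNAs mt.Rnr1 (-0.08 ± 0.26) and mt.Rnr2 (-0.06 ± 0.16) and the next gene, mt.Nd1 (-0.06 ± 0.16), were near 0. mt.Nd2 (-0.29 ± 0.17), mt.Co1 (-0.21 ± 0.14), mt.Co2 (-0.32 ± 0.16) and mt.Co3 (-0.08 ± 0.24), of which the last 3 form the core of complex IV, were nearer to 0 than the genes from mt.Nd4l on. The genes from mt.Nd4l to mt.Cytb, at the far end from the rRNAs, were the ones between -0.63 and -0.50. mt.Atp8 and mt.Atp6, both at -0.40, lie between mt.Co2 and mt.Co3, and without control MemB replicate 1 mt.Atp8 was at -0.24. This order was seen after the values were known and was not tested. Summed, the 13 mitochondrial members had 0.182, 0.194 and 0.206 counts for each mitochondrial rRNA count in control MemB and 0.130, 0.166 and 0.192 in KI MemB, which overlapped. mt.Nd6 is the one member encoded on the other strand, it overlaps mt.Nd5, and mt.Atp8 overlaps mt.Atp6 as mt.Nd4l overlaps mt.Nd4. The sources used here do not say whether counting used strand, so reads in these overlaps may not be told apart.

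**Figure D3:**
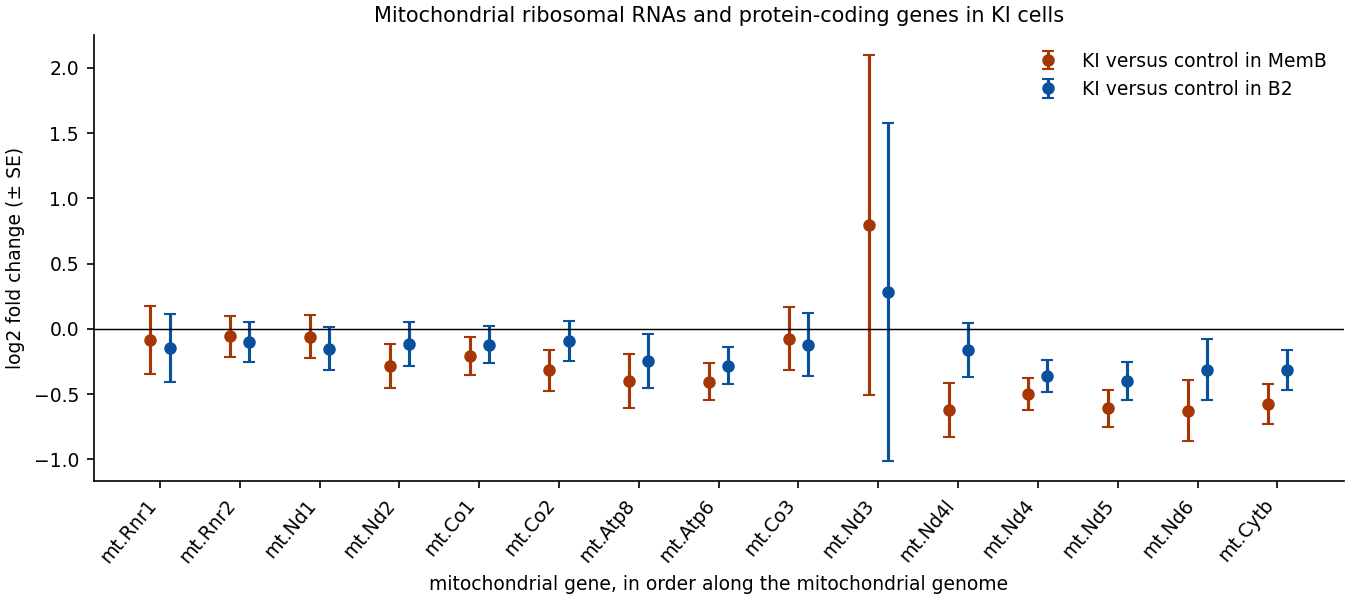
Log2 fold change (± SE) between KI and control of the mitochondrial rRNAs and the 13 mitochondrial members, in their order along the mitochondrial genome, in MemB and B2. In MemB the values from mt.Nd4l to mt.Cytb lie between -0.63 and -0.50 and those of both rRNAs near 0, and mt.Nd3 has a wide error.

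Among marker sums in the same MemB libraries, those of dividing, NK and B-1 cells did not overlap between genotypes, and the others did. An unadjusted p below 0.05 was reached by 4.83% of all genes for higher and 6.24% for lower values in KI. No marker of the B cell or memory B lists reached it. The 10 dividing cell markers summed to 418 to 425 CPM in control MemB and 572 to 952 CPM in KI MemB, and 4 of the 10 were higher in KI at an unadjusted p below 0.05. T cell markers summed to 419 to 453 CPM in control and 265 to 457 CPM in KI MemB, with 4 of 7 lower at that p, and NK cell markers to 21.2 to 56.5 CPM and 0.674 to 6.82 CPM, with 2 of the 3 tested lower. Mast cell markers summed to 45.0, 1.53 and 240.0 CPM in control MemB and at most 1.77 CPM in KI MemB, so they were low in control MemB replicate 2 as well. Macrophage markers summed to 49.0 to 106 CPM and 50.2 to 112 CPM, 1 of the 4 tested was lower at that p, and C1qa, one of the list, had 0 counts in all libraries. B-1 cell markers summed to 581 to 649 CPM in control and 463 to 517 CPM in KI MemB with no overlap, and 1 of 4 was lower at that p. Plasma cell markers summed to 409 to 650 CPM and 447 to 588 CPM, with 2 of 8 higher and 1 lower. Naive B2 markers summed to 320 to 333 CPM and 199 to 349 CPM, with 2 of 3 higher and 1 lower, the lower one being Ighd (209 to 251 CPM in control, 66.4 to 101 CPM in KI, adjusted p 9.39e-05). The part of these cells in the mitochondrial values was not tested.

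Among nuclear members in MemB, those of complex II had the highest median log2 fold change, 0.71, with 3 of 4 above 0. Sdha (chr13:74469359-74498436, minus strand), the flavoprotein that oxidizes succinate, stood at 85.2, 74.2 and 78.7 CPM in control MemB and 148.6, 189.55 and 73.2 CPM in KI MemB. KI replicate 3 lay below all controls, and the log2 fold change of 0.79 ± 0.36 had an adjusted p of 0.399. It was 0.483 without KI MemB replicate 2. Sdhb (chr4:140688502-140709380, plus strand), which carries electrons onward through its iron-sulfur clusters, stood at 7.73, 21.4 and 13.8 CPM in control and 44.3, 30.4 and 25.9 CPM in KI MemB. These groups did not overlap, and the value of 1.23 ± 0.64 had an adjusted p of 0.478. The membrane anchors Sdhc (0.62 ± 0.66) and Sdhd (-0.11 ± 0.54) were within their errors. Nuclear medians in the other complexes were 0.09 in complex I, 0.25 in complex III, 0.22 in complex IV and 0.28 in complex V.

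In complex IV, Ndufa4, a subunit once assigned to complex I, was at 22.4, 30.7 and 17.5 CPM in control MemB and 39.9, 27.4 and 87.7 CPM in KI MemB (log2 fold change 1.14 ± 0.53, adjusted p 0.424). KI replicate 3 held the highest value, the groups overlapped, and without that library the log2 fold change was 0.518. Cox7a2l, counted here with complex IV, was at 197, 153 and 173 CPM in control MemB and 132, 99.05 and 105 CPM in KI MemB. The groups did not overlap, and its value of -0.64 ± 0.31 had an adjusted p of 0.451. Uqcrq of complex III was at 20.5, 13.5 and 14.7 CPM in control and 37.2, 26.4 and 25.5 CPM in KI MemB (0.87 ± 0.61, adjusted p 0.639).

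None of the other core nuclear subunits given here stood out from its error. In MemB, the electron-carrying complex I subunits Ndufs1 (0.10 ± 0.59) and Ndufv1 (-0.80 ± 0.73) and the structural Ndufa9 (0.80 ± 0.73) had errors near or above their values. So did the complex III core proteins Uqcrc1 (0.18 ± 0.56) and Uqcrc2 (-0.11 ± 0.38) and its Rieske protein Uqcrfs1 (-0.21 ± 0.66), and in complex IV Cox4i1 (-0.19 ± 0.38), Cox5a (0.11 ± 0.48) and Cox5b (0.36 ± 0.53). The catalytic beta subunit of complex V, Atp5f1b, was the closest to 0 and among the best measured (-0.07 ± 0.26), with the alpha subunit Atp5f1a at 0.09 ± 0.27, the shaft subunit Atp5f1c at 0.33 ± 0.40 and the inhibitor Atp5if1 at 0.28 ± 0.63. With SEs of 0.26 to 0.73 on the log2 scale, moderate changes of these genes were not detectable.

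**Figure D4:**
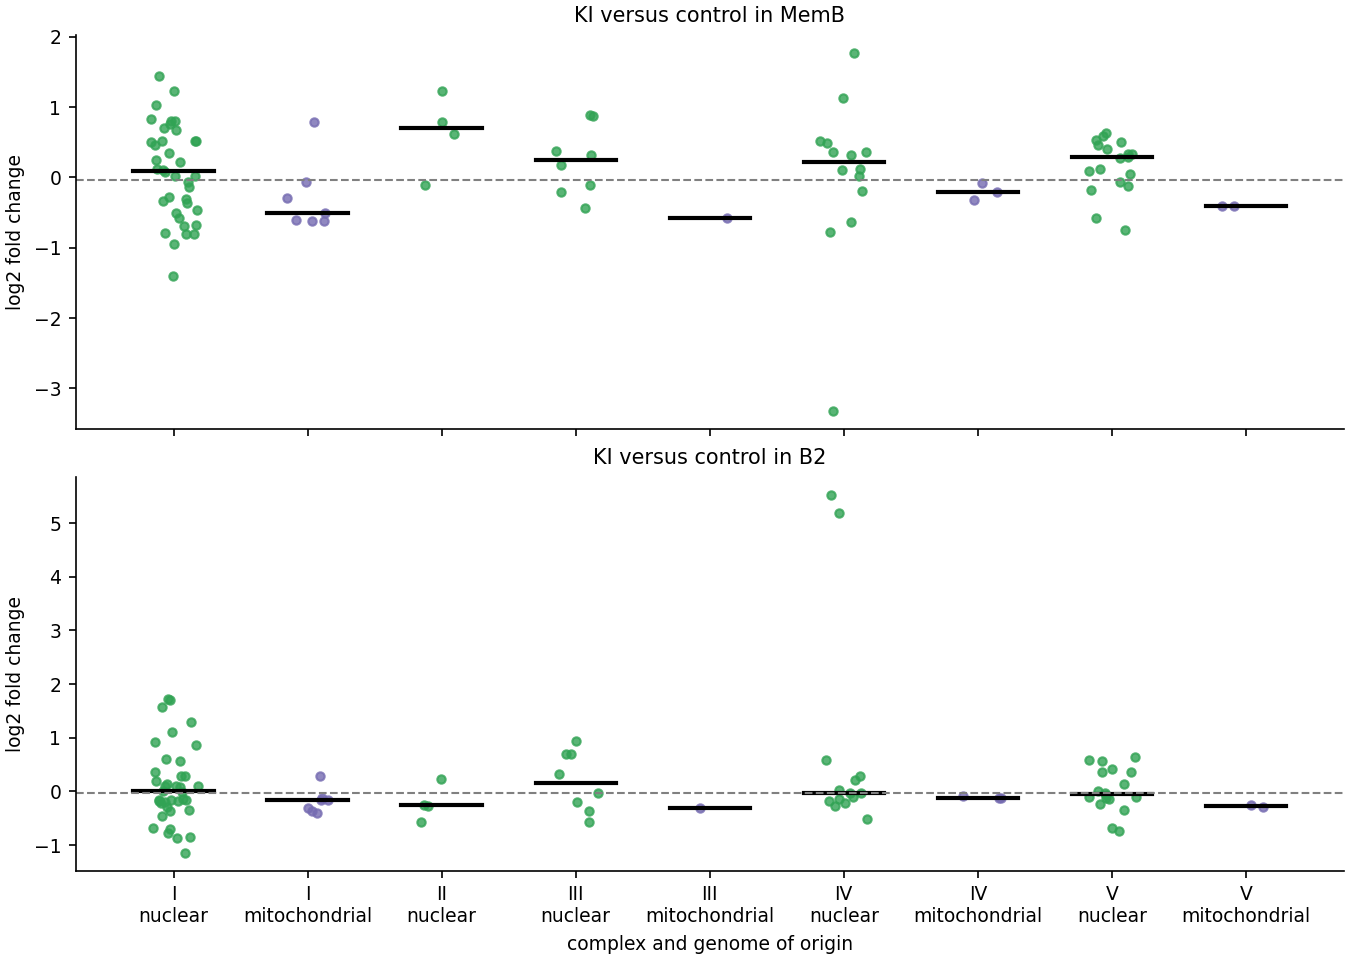
Log2 fold change between KI and control of each member in MemB (top) and B2 (bottom), by complex and genome of origin, with a black line at each median and a dashed line at the median of all genes tested. Mitochondrial medians lie below the dashed line in each complex of both cell types; the 2 highest points in B2 are Cox6b2 and Cox7a1.

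The same comparison in B2 gave no call among the 95 members in edgeR or DESeq2, against 0.0066% of all genes (1 gene, Gpr34). At an unadjusted p below 0.05, 3 members were higher (3.16%, against 2.86% of all genes) and 3 were lower (3.16%, against 2.88%). The 3 lower ones were again mt.Nd4 (-0.36 ± 0.12), mt.Nd5 (-0.40 ± 0.14) and mt.Cytb (-0.32 ± 0.15), each with an adjusted p above 0.8. In DESeq2 no mitochondrial member had an unadjusted p below 0.05 in B2. mt.Nd4 stood at 4942, 4436 and 4133 CPM in control B2 and 3063, 3756 and 3701 CPM in KI B2. It was the one mitochondrial member whose B2 groups did not overlap. The median was -0.16 over the mitochondrial members, with 12 of 13 below 0 (48.4% of all genes were above 0), and -0.03 over both the nuclear members and all genes. Single libraries moved this too. Without control B2 replicate 1, which had the highest mitochondrial sum, 7 of 13 were below 0, the mitochondrial median was -0.00585, 0 had an unadjusted p below 0.05 in edgeR and mt.Nd5 and mt.Cytb stood at -0.247 and -0.092. Without control B2 replicate 3 all 13 were below 0, the median was -0.341 and 5 had an unadjusted p below 0.05. With the number of detected genes as a covariate the median was -0.36 in B2, with 6 members lower at that p, and -0.343 in MemB. Mast cell markers stood at 74.9 CPM in KI B2 replicate 3 and at most 1.75 CPM in the other B2 libraries, with all 3 tested higher in KI at that p, and 2 of 4 B-1 markers were lower (147 to 206 CPM summed in control B2, 114 to 200.2 CPM in KI B2). Their part in the B2 values was not tested.

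The 3 members higher in B2 were Cox6b2 (log2 fold change 5.52 ± 2.35, adjusted p 0.838) and Cox7a1 (5.18 ± 2.51, adjusted p 0.849), whose counts are given above, and Ndufa1. Since control B2 had at most 2 counts of the first pair, their fitted values depend on the prior count of the fit and bound no fold change. Both reached 10 counts in at least 3 libraries only with those of KI B2. The member rule thus kept them through the group in which they are high, and their place in these counts is no evidence. Ndufa1, a small subunit of complex I encoded on the X chromosome, stood at 1.48, 11.6 and 2.88 CPM in control B2 and 16.8, 17.1 and 18.1 CPM in KI B2. The groups did not overlap, and its log2 fold change was 1.70 ± 0.76. In B2 6 members were higher without overlap (6.32%, against 5.21% of all genes), namely Ndufa1, Ndufb9, Uqcr10, Cox6b2, Atp5mc1 and Atp5mc3. In the other direction there was 1, mt.Nd4 (1.05%, against 4.98%).

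The difference of the KI effect between MemB and B2 was tested directly. No member was called in edgeR or DESeq2, against 0.066% of all genes. At an unadjusted p below 0.05, 1 member had a higher KI effect in MemB (1.05%, against 3.97% of all genes) and 1 a lower one (1.05%, against 4.52%). Sdha was the first, with a difference of 1.35 ± 0.50 on the log2 scale and an adjusted p of 0.438. Its B2 levels were 182, 85.6 and 172 CPM in control and 62.5, 89.5 and 145 CPM in KI, so the B2 groups overlapped with the lower values in KI. All 4 complex II members had a difference above 0, and their median was 0.95. Cox7a1 was the second member, on the few counts given above, and it met the member rule only with KI B2 libraries. Ndufv2 (1.37 ± 0.78, adjusted p 0.667), an iron-sulfur subunit of complex I, and in complex V Atp5f1c (1.07 ± 0.57, adjusted p 0.646) and the stalk subunit Atp5pb (0.69 ± 0.59, adjusted p 0.838) had among the lowest p in their complexes and did not pass. Without control B2 replicate 3 the difference was 0.735 for Ndufv2 and 0.422 for Atp5pb. Ndufb9 of complex I went the other way (-1.78 ± 1.06, adjusted p 0.688). The nuclear complex I members had a median difference of -0.28, with 16 of 38 above 0 (42.1%, against 49.8% of all genes). The mitochondrial members had a median difference of -0.15, which ran from -0.346 without control B2 replicate 1 to -0.0383 without control B2 replicate 3, and none had an unadjusted p below 0.05.

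The comparison of MemB with B2, averaged over the genotypes, also called no member in edgeR or DESeq2, against 1.01% of all genes (153). The medians were 0.07 over the mitochondrial and 0.08 over the nuclear members, against 0.02 over all genes. At an unadjusted p below 0.05, 3 members were higher in MemB (3.16%, against 6.78% of all genes) and 1 was lower (1.05%, against 6.14%). They were Ndufa1 (1.33 ± 0.53, adjusted p 0.251), Atp5mc3 (0.70 ± 0.32, adjusted p 0.341, and 0.455 without control MemB replicate 2) and mt.Nd4 (0.19 ± 0.09, adjusted p 0.349), and in the other direction Cox5b (-0.86 ± 0.38), a zinc-binding subunit of complex IV. Cox5b stood at 47.8, 17.7 and 52.8 CPM in control B2 and 46.3, 40.4 and 51.0 CPM in KI B2, and at 30.1, 16.4 and 15.3 CPM in control MemB and 23.2, 23.2 and 33.4 CPM in KI MemB. Control B2 replicate 2 lay within the MemB range, and the adjusted p was 0.313.

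mt.Nd3 followed neither genotype nor cell type. This small complex I subunit (chrM:9459-9806) stood at 48.2, 206 and 25.3 CPM in control B2 and 153, 23.3 and 164 CPM in KI B2. It stood at 30.4, 159 and 10.3 CPM in control MemB and 184, 19.9 and 143 CPM in KI MemB. In both cell types control replicate 2 and KI replicates 1 and 3 were high (142.9 to 206 CPM), and control replicates 1 and 3 and KI replicate 2 were low (10.3 to 48.2 CPM), with no library between. The B2 and MemB libraries of the same genotype and number, which the labels do not say come from one mouse, differed by 1.15-fold to 2.45-fold. The highest library was 20.0-fold above the lowest, against 1.60-fold to 2.47-fold in the other 12 mitochondrial members. The grouping does not follow Xist, which was high in replicate 3 of each group (91355 to 105564 counts, against 875 to 2175 in the others). Its neighbour tRNA gene mt.Tr had 7, 3 and 12 counts in the B2 libraries with high mt.Nd3 and 0 in the other 3, but 10, 0 and 0 in the MemB ones. The split left its KI effect without precision, at 0.80 ± 1.3 in MemB and 0.28 ± 1.3 in B2.

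A nuclear copy of mt.Nd3, Gm28438, lies on chromosome 1 (chr1:24651856-24652200, minus strand, mm39). The first 60 bases of both are given because reads that match both can be shared between them. Capitals mark the position of the substitution T3C, counted from the first base of mt.Nd3, the one difference over the 345 bases compared.
mt.Nd3: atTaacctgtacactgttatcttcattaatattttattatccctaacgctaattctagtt
Gm28438: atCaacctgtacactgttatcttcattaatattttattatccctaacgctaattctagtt
The copy took 2.04% to 56.2% of the counts of the pair. Summed over both, the counts were whole numbers and still split, into 787 to 1594 in the 6 low libraries and 4479 to 7264 in the 6 high ones. Whether the mice differed in the mitochondrial sequence itself was not tested.

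**Figure D5:**
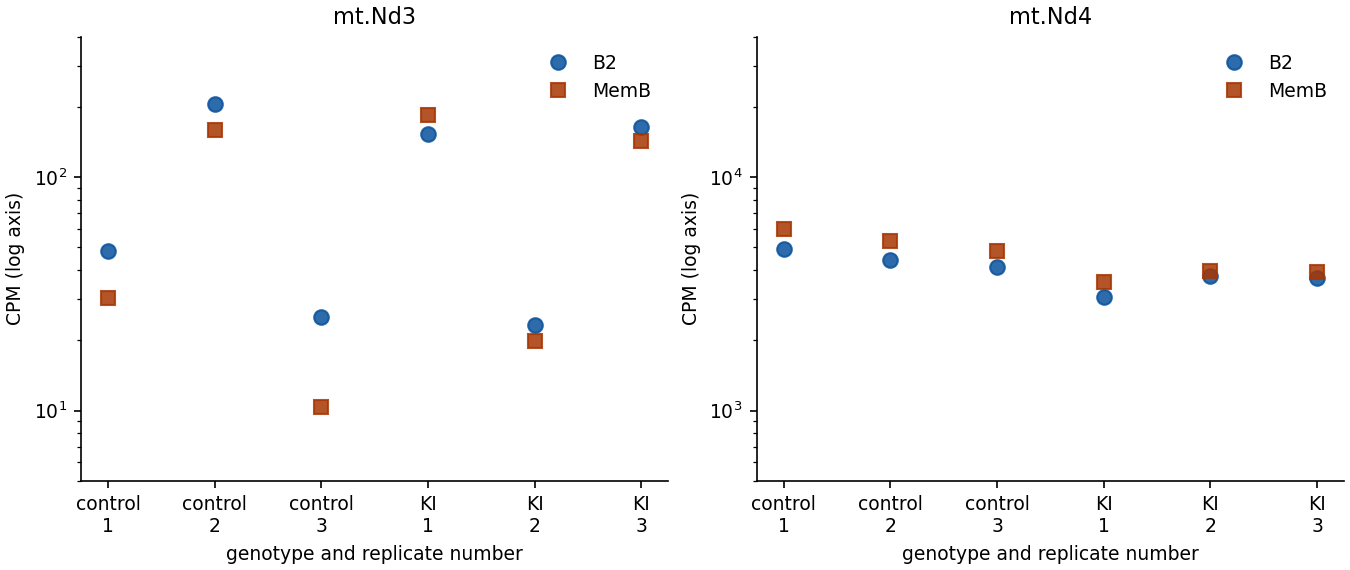
CPM (log axis) of mt.Nd3 and, for comparison, mt.Nd4 by genotype and replicate number, in B2 and MemB. mt.Nd3 is at 10.3 to 48.2 CPM or at 142.9 to 206 CPM, alike in both cell types, and mt.Nd4 varies far less.

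Other mitochondrial members share reads with copies in the nuclear genome as well. Gm28661 took 30.8% to 44.5% of the counts of its pair with mt.Co2, Gm10925 22.7% to 34.7% with mt.Atp6, Gm28437 19.0% to 34.2% with mt.Co3, Gm29216 13.4% to 23.8% with mt.Co1, Gm10222 10.8% to 31.4% with mt.Nd4l and Gm28439 0.08% to 0.29% with mt.Nd4. With each copy added to its gene, mt.Nd5 (-0.61), mt.Nd4 (-0.50), mt.Cytb (-0.58), mt.Nd4l (-0.57) and mt.Atp6 (-0.37) stayed below 0 in MemB and no member was called.

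Promoter sequences were compared for the letters of 3 factors known to act on nuclear OXPHOS genes, as a description. RefSeq promoter entries, from 250 bases before to 50 after a start site, matched 67 of the 82 nuclear members. GCGCATGC, the core of the NRF1 site, was found on either strand in 10 of 67 (14.9%), against 3.05% of 27025 genes. CCGGAAG, a core of ETS family sites that GABPA also binds, was found in 16 (23.9%, against 9.93%), and AAGATGGC, a core of YY1 sites, in 10 (14.9%, against 3.19%). At least 1 of the 3 was in 30 of 67 (44.8%, against 14.9%). By complex, the YY1 letters were in 7 of 33 complex I, 3 of 14 complex V and none of the other 20 promoters. The 27025 genes were not limited to those expressed here, while members were kept by their counts, so the shares are not matched for expression. A match by letters is not a bound site. One window for each is shown, with the motif in capitals, on the strand of the gene and located by its exact match to GRCm39.
Sdhb, NRF1 letters on the other strand, chr4:140688518-140688545: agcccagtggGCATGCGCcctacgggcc
Sdhd, ETS letters on the other strand, chr9:50515179-50515205: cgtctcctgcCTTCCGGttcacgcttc
Atp5pf, YY1 letters, chr16:84631935-84631962: aagtgtaggaAAGATGGCggagtcttag
Both complex II genes are described above, and Atp5pf encodes coupling factor 6 of complex V.

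No nuclear regulator of OXPHOS genes was called. Of 14 nuclear regulators listed, 11 were tested, and in MemB 1 was higher and 1 lower at an unadjusted p below 0.05 (9.09% each, against 4.83% and 6.24% of all genes). Esrra, a nuclear receptor that works with PGC-1 coactivators, was at 1.71, 5.87 and 3.48 CPM in control MemB and 61.5, 14.4 and 8.66 CPM in KI MemB. Its groups did not overlap, as in 6.01% of all genes, and its log2 fold change of 2.94 ± 0.93 had an adjusted p of 0.26. The Esrra value leans on KI replicate 1, far above the other libraries. Nrf1 was the lower one (-1.56 ± 0.64, adjusted p 0.363). It stood at 26.3, 8.36 and 45.5 CPM in control MemB and 6.955, 16.5 and 3.75 CPM in KI MemB, which overlapped. Ppargc1a, the coactivator PGC-1α, was at 0.12 to 0.749 CPM in all 6 MemB libraries and at 1.71, 3.25 and 0.184 CPM in control B2 and 25.2, 7.37 and 7.56 CPM in KI B2. Averaged over genotypes its MemB level was lower (-4.08 ± 1.10), with an adjusted p of 0.0561.

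Genes that build or feed the complexes gave 1 call in 4 comparisons. Of 55 OXPHOS assembly factors, Cmc2, which takes part in complex IV assembly, was higher in MemB than in B2 (log2 fold change 3.47 ± 0.91, adjusted p 0.0471), at 5.02 to 21.8 CPM in MemB and 0.268 to 2.11 CPM in B2 with no overlap. It was 1 call among 55 genes, beside 1.01% of all genes. In KI MemB the 55 had a median of -0.12, with 1 higher (1.82%) and 3 lower (5.45%) at an unadjusted p below 0.05, near or under the 4.83% and 6.24% of all genes. The 78 mitochondrial ribosomal proteins, which translate the 13 mitochondrial members, had a median of 0.27 in KI MemB and -0.04 in KI B2. In MemB 50 of 78 (64.1%) were above 0, against 48.4% of all genes. At that p, 1 was higher (1.28%) and 2 lower (2.56%) in MemB and 1 lower (1.28%, against 2.88% of all genes) in B2, all under the share of all genes. The 17 TCA cycle genes had a median of 0.06 in MemB, with 2 higher (11.8%) and none lower. The 14 other subunits and carriers had 1 lower in MemB (7.14%), the electron carrier dehydrogenase Etfdh (-1.27 ± 0.59, adjusted p 0.422). Etfdh stood at 12.96, 48.86 and 28.12 CPM in control MemB and 12.58, 14.74 and 9.902 CPM in KI MemB, which overlapped. Control MemB replicate 2 was the highest, and the Etfdh value leans on it. Cytochrome c, Cycs, was at 1.33 ± 0.73 in MemB. In B2 2 of the 14 were lower (14.3%, against 2.88% of all genes), Coq2 (-1.92 ± 0.72, adjusted p 0.838) and Pdss1 (-2.36 ± 1.07, adjusted p 0.846), which act in ubiquinone synthesis. Coq2 stood at 39.1, 11.9 and 75.5 CPM in control B2 and 9.2, 14.1 and 10.1 CPM in KI B2, which overlapped. Pdss1 stood at 7.5, 9.02 and 47.4 CPM in control B2 and 4.19, 2.2 and 6.05 CPM in KI B2. Control replicate 3 was the highest for both, and both values lean on it.

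Of 27 genes for mitochondrial DNA maintenance, transcription and RNA processing, 9 were above 0 in KI MemB (33.3%, median -0.17) and 4 in KI B2 (14.8%, median -0.45), against 48.4% of all genes in each. At an unadjusted p below 0.05, 1 was lower in MemB (3.7%, against 6.24% of all genes) and 3 in B2 (11.1%, against 2.88%), and none was higher. Ssbp1, the single-stranded DNA-binding protein of mitochondrial replication, was lower by that measure in both, at -0.954 ± 0.43 (adjusted p 0.397) in MemB and -0.995 ± 0.43 (adjusted p 0.838) in B2. It stood at 139, 78.7 and 71.1 CPM in control MemB and 51.2, 37.0 and 60.8 CPM in KI MemB, with no overlap. In B2 it stood at 53.8, 57.7 and 179.6 CPM in control and 63.1, 36.1 and 46.8 CPM in KI, which overlapped. Control replicate 3 was far above the others, and the B2 value leans on that library. Prorp, the nuclease subunit that cuts tRNA 5′ ends in mitochondria, was at 18.6, 58.9 and 45.7 CPM in control B2 and 11.9, 1.05 and 6.31 CPM in KI B2 (-2.68 ± 0.71, adjusted p 0.838). In MemB the Prorp groups overlapped, and the difference of the KI effect was 3.73 ± 0.97 with an adjusted p of 0.225. Of the 24 mitochondrial rRNAs and tRNAs 10 were tested, and none had an unadjusted p below 0.05 in any of the 4 comparisons in edgeR. The tRNAs summed to 1019, 1021 and 844 counts in control MemB and 565, 890 and 544 in KI MemB, which overlapped. No gene of these lists was called between KI and control.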

How the data were processed

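RNAseq was made from 12 libraries of sorted PerC B2 and MemB. RNA was amplified before library preparation. The authors aligned reads to mm39 with STAR 2.7.11a and deposited RSEM 1.3.3 expected counts per gene, without normalization, in a single table (cutadapt 4.5 and FastQC 0.12.1 in the submitters' processing notes); 0 columns were left without a library. The annotation version is not given in the sources used here. RSEM shares reads between similar genes: 32.2% of values above 0 were fractional (tolerance 0.005) and were rounded before testing.

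Counts of all 12 libraries entered one edgeR 4.0.16 quasi-likelihood model (R 4.3.3, TMM, filterByExpr at a minimum count of 10, robust fit, limma 3.58.1), with Benjamini-Hochberg adjustment over 15148 genes. Contrasts were KI with control in each cell type, the difference of those effects, and MemB with B2. SE is the log2 fold change over the square root of F. DESeq2 1.42.0 was an alternative. Alternatives covered scaling, filters, blocks and each library left out, and a fit that added nuclear copies to mitochondrial genes, chosen after seeing the data. Coordinates and coding lengths are from GENCODE M39 on GRCm39 (mm39). Copies were sought at 95% identity over 100 nt, and 42 members had one. Mitochondrial copies were paired at 99% identity or more, Gm10925 through its RefSeq synonym. Promoters and gene synonyms are from RefSeq GRCm38.p6.

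Members and gene lists were chosen with earlier results of these data known. Genes named are the mitochondrial members, core subunits, isoform families, called members, the 2 members of each complex with the lowest p in a comparison, the highest and lowest per kilobase, and from each list called genes and up to 3 with the lowest p. Members whose groups did not overlap are also named, as are Xist, mt.Tr, C1qa, Atp5mg, Ndufb4c and Atp5pf, which were chosen after their values were seen. A core subunit that the rule names is not reported here. The labels call the libraries biological replicates and do not say which came from the same mouse, so p-values measure the spread between these samples. Depth covers counting error only, since amplified reads are not independent molecules.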

Additional observations from a re-analysis of the deposited data

How the results depend on the processing

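No member was called under any alternative run, and the count at an adjusted p below 0.05 without a limit on the fold change was also 0 in each comparison with all libraries. The median log2 fold change of the nuclear members in KI B2 ran from -0.126 to 0.145 with a library left out, 0.145 being without control B2 replicate 1. Other medians moved by less than 1 SD between replicates (0.153 for nuclear, 0.221 for mitochondrial members), but often by over 1.5 times. With a library left out, mitochondrial medians ran from -0.54 to -0.24 in KI MemB, from -0.341 to -0.0058 in KI B2, from -0.346 to -0.0383 for the difference and from 0.0075 to 0.127 between MemB and B2. In the same fits nuclear medians ran from 0.0846 to 0.332 in KI MemB, from -0.0219 to 0.227 for the difference and from 0.0516 to 0.149 between MemB and B2. Of the named members, Sdhd in KI B2 ran from -0.481 to 0.085 with a library left out and turned positive without control B2 replicate 3, and Sdha between MemB and B2 to 0.051 with the number of detected genes as a covariate. Without a fold limit, mt.Nd5 in KI MemB passed in 5 of 12 fits that left out a library, at an adjusted p of 0.0261 to 0.0428, and mt.Nd4 at 0.0487 without control MemB replicate 3. DESeq2 called 480 genes in KI MemB and 43 in KI B2, against 43 and 1 in edgeR. It called 203 for the difference and 591 between MemB and B2, against 10 and 153.

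With a replicate block, 0 members were called, and the medians in KI MemB were -0.382 (mitochondrial) and 0.197 (nuclear). Over all genes 37 were called in KI MemB. Over all genes, deviations of same-numbered libraries had correlations of -0.01 to 0.03, and the main fit used no pairing. With replicates that vary so widely, such correlations cannot show that the libraries are unpaired. mt.Nd3 and Xist, however, were alike in B2 and MemB of the same genotype and number, so whether these share a mouse is not settled. With such pairs as the block, which cannot give KI effects within a cell type, 0 members were called.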
